A study of Homo sapiens with 20 samples.

Results

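The TAZ-CAMTA1 fusion was compared with full-length CAMTA1, the protein that gives the fusion its C terminus, in accessible chromatin of SW872, an established human liposarcoma cell line. ATAC-seq reads out where a transposase can reach the DNA and cut it, so that a peak is a stretch of DNA cut more often than its surroundings. The members were the 236893 peaks of the TAZ-CAMTA1 list and the 223651 peaks of the CAMTA1 list, together 460544 of the 1407450 peaks in the 7 lists of the series, and 6 of its 20 libraries. Peaks of these lists that overlapped by 1 bp or more were called shared. A peak was called one-sided when the −log10 p of its summit was 6 or more and no peak of the other list lay within 1 kb.

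The cells were pools stably transduced with a retroviral vector and selected with G418, and were not single clones. The CAMTA1 cells carried Flag-tagged full-length CAMTA1 and the TAZ-CAMTA1 cells carried the Flag-tagged fusion, with 3 libraries each. The lists used to split the one-sided peaks came from cells with the empty vector (EV), from cells with TAZ4SA and from cells with YAP5SA, which are forms of full-length TAZ and YAP whose inhibitory serines were replaced by alanine, again with 3 libraries each. YAP-TFE3 (3 libraries) and TFE3 (2 libraries) were further readouts. The third EV library is titled a redo, and the titles of the YAP-TFE3 libraries give YAP5SA for the YAP portion. The expression of each protein in these libraries, and the density at which the cells were collected for ATAC-seq, were not analysed here, and SW872 stands in for the tumour cells, which have no line.

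TAZ and YAP co-activate transcription, and the Hippo kinases hold them in the cytoplasm by phosphorylation of serines. Without that phosphorylation they enter the nucleus and bind DNA through the TEAD transcription factors. CAMTA1 is a calmodulin-binding transcription activator with its own transactivating domain and nuclear localization signal. In epithelioid hemangioendothelioma, a vascular sarcoma, the N terminus of TAZ with its TEAD binding domain is fused to the C terminus of CAMTA1. Full-length CAMTA1 lacks the TEAD binding domain, which TAZ4SA, YAP5SA and the fusion hold. The fusion in turn lacks the N terminus of CAMTA1. The comparison asks which accessible sites differ between the fusion and full-length CAMTA1, and whether those sites have peaks with active TAZ or YAP. The gain of the TAZ portion and the loss of the CAMTA1 N terminus cannot be told apart.

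Each vector had a single list, in hg19 (GRCh37) coordinates. The methods of the study describe peak calling on every replicate separately, and whether a list, with its p and areas, draws on all libraries of its vector is not stated. None of the values therefore carries a replicate error, and no test between the conditions was possible. The intervals are 95% intervals of counted shares and cover counting error only. The 7 lists held between 152702 peaks (TAZ4SA) and 236893 peaks (TAZ-CAMTA1), and the sequencing depth behind each is unknown. Genes and sequences at the sites were not analysed here, since the genome at hand was of another build.

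Most of the accessible sites were common to the fusion and to full-length CAMTA1. Of the TAZ-CAMTA1 peaks, 158080 (66.7%, 66.5 to 66.9) overlapped a CAMTA1 peak, and of the CAMTA1 peaks, 176182 (78.8%, 78.6 to 78.9) overlapped a TAZ-CAMTA1 peak. Among strong peaks, those with a summit −log10 p of 6 or more, sharing was nearly complete, at 99.0% of 74802 TAZ-CAMTA1 peaks and 99.3% of 73556 CAMTA1 peaks. Among weak peaks, with a summit −log10 p under 4, it was 33.2% of 70057 TAZ-CAMTA1 peaks and 52.2% of 57233 CAMTA1 peaks. The peaks held by 1 list alone were therefore mostly weak ones.

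The shared peaks were slightly broader in the fusion list. A TAZ-CAMTA1 peak spanned 2 or more CAMTA1 peaks in 23020 cases (14.6% of the TAZ-CAMTA1 peaks with an overlap), and a CAMTA1 peak spanned 2 or more TAZ-CAMTA1 peaks in 9592 cases (5.44%). The most CAMTA1 peaks that lay in a single TAZ-CAMTA1 peak numbered 10, and in the opposite direction 7. To compare like with like, 117565 one-to-one pairs were taken, in which each peak overlapped only the other. In these pairs the median width was 284 bp in the TAZ-CAMTA1 list and 236 bp in the CAMTA1 list. The median log2 width ratio (TAZ-CAMTA1 over CAMTA1) was 0.08, or 1.06-fold, with quartiles of -0.13 and 0.46, and the TAZ-CAMTA1 peak was the wider in 61.5% of the pairs (61.2 to 61.8).

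The deposited signal of a peak sums the peak caller's statistic over its bases and is called area here. It grows with both the height and the width of a peak. The median log2 area ratio was 0.22, or 1.17-fold in favour of TAZ-CAMTA1, with quartiles of -0.34 and 0.91. In the 39978 pairs with a summit −log10 p of 6 or more in both lists the median log2 area ratio was 0.14 and the median log2 width ratio 0.05. These shifts apply to the whole list and are small beside the spread of the pairs. Across the 117565 sites, the log2 areas of both lists had a Pearson r of 0.874 and a Spearman rho of 0.820. Sites of the same genome differ in openness and in width in any cell, so this value describes the sites and is no measure of replicate agreement.

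**Figure D1:**
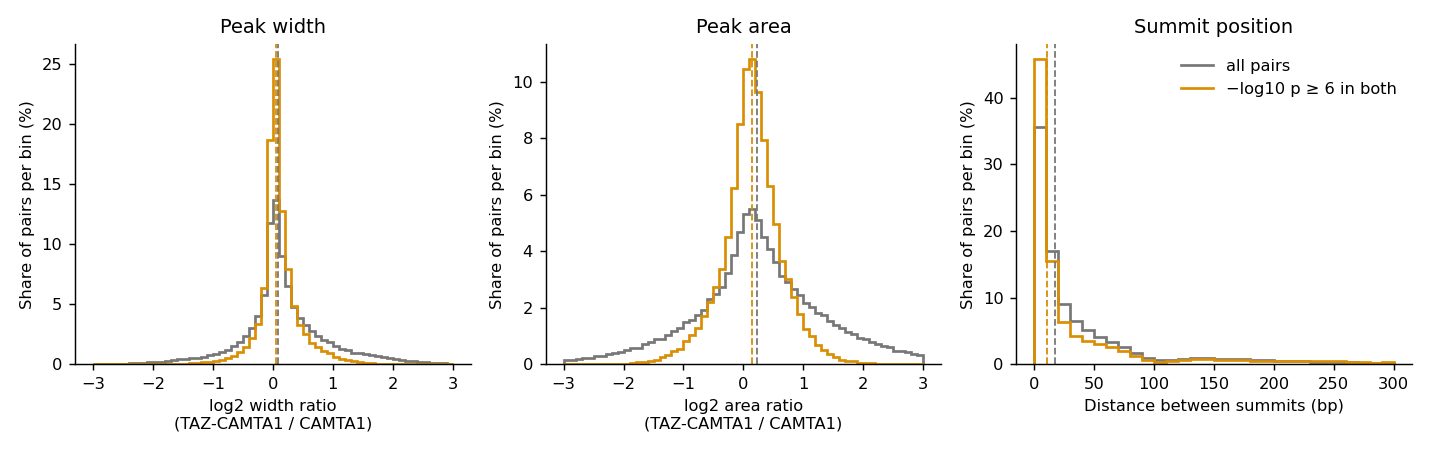
One-to-one pairs of overlapping TAZ-CAMTA1 and CAMTA1 peaks, as the share of pairs per bin, for the log2 width ratio (left), the log2 area ratio (middle) and the distance between summits in bp (right). Grey lines are all 117565 pairs, orange lines the 39978 pairs with a summit −log10 p of 6 or more in both lists, and dashed lines mark the medians. The ratios centre just above 0 and the strong pairs spread less, while summit distances pile up under 10 bp.

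The spread of the area ratio depended on the size of the peaks. Where the narrower peak of a pair was up to 100 bp wide, the SD of the log2 area ratio was 1.57 over 27948 pairs and the median was 0.45. Where it was over 800 bp wide, the SD was 0.389 over 20473 pairs and the median was 0.12. Broad, strong sites thus had nearly equal areas in both lists, and a change of several fold at a narrow site lay within the ordinary spread for its width.

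The summits of the one-to-one pairs mostly lay close together. The distance between them had a median of 17 bp, with quartiles of 6 and 53 bp, and 73.9% of the pairs (73.6 to 74.1) had summits within 50 bp. In strong pairs the median was 11 bp, and 75.8% lay within 50 bp. In 3.92% of the pairs the summits were over 250 bp apart. The shifts had no side: among the pairs whose summits differed, that of TAZ-CAMTA1 lay at the higher coordinate in 49.8% (49.5 to 50.1).

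One-sided sites were rare in both directions. Of the 74802 strong TAZ-CAMTA1 peaks, 470 (0.628%) had no CAMTA1 peak within 1 kb, and of the 73556 strong CAMTA1 peaks, 379 (0.515%) had no TAZ-CAMTA1 peak within 1 kb. For scale, 12999 (17.4%) of the strong TAZ-CAMTA1 peaks had no TAZ4SA peak within 1 kb, 3128 (4.18%) had no YAP5SA peak, 3098 (4.14%) had no EV peak and 357 (0.477%) had no YAP-TFE3 peak. The lists searched differ in length, and the part of that length in these shares was not tested.

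The one-sided peaks were narrow and close to the threshold. The median width was 356 bp for TAZ-CAMTA1 and 324 bp for CAMTA1, against 851 and 761 bp over all strong peaks of the same list. The median area was 443 for TAZ-CAMTA1 and 435 for CAMTA1, against 1538 and 1378. The median summit −log10 p was 6.36 and 6.49, respectively, and 8 TAZ-CAMTA1 and 21 CAMTA1 peaks reached 8. At the threshold, the TAZ-CAMTA1 peaks without a CAMTA1 peak nearby had a −log10 p of 6.0002 just inside and 5.9985 just outside, with a further 2153 such peaks between 5 and 6. The CAMTA1 values were 6.0078 and 5.9964, with 1329 further peaks. The nearest strong peaks kept and dropped by distance lay 1004 and 998 bp from a CAMTA1 peak, and 1042 and 999 bp from a TAZ-CAMTA1 peak. Both sets are therefore the tail of a continuous distribution, and their counts move with the threshold: from a summit −log10 p of 5 there were 2623 TAZ-CAMTA1 and 1708 CAMTA1 sites, and from 8 there were more CAMTA1 than TAZ-CAMTA1 sites.

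Few of these sites lay close to another one-sided peak of the same list. The distance to the nearest peak of the other list, which the rule held above 1 kb, had a median of 5157 bp for the TAZ-CAMTA1 peaks and 6012.5 bp for the CAMTA1 peaks. On the TAZ-CAMTA1 side 5 neighbouring one-sided peaks lay under 1 kb apart, and on the CAMTA1 side 8 did. One-sided peaks were found on every autosome, from 0.390% of the strong TAZ-CAMTA1 peaks on chromosome 11 to 1.37% on chromosome 18, and from 0.233% of the strong CAMTA1 peaks on chromosome 19 to 0.916% on chromosome 4. The share was higher for TAZ-CAMTA1 on 16 of 22 autosomes.

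The one-sided sites of the fusion and of full-length CAMTA1 differed in which other lists held a peak there. A TAZ4SA peak lay over 52 of the 470 one-sided TAZ-CAMTA1 peaks (11.1%, 8.54 to 14.2) and over 273 of the 379 one-sided CAMTA1 peaks (72.0%, 67.3 to 76.3), a difference of -61.0 percentage points (-65.9 to -55.3). A YAP5SA peak lay over 196 TAZ-CAMTA1 (41.7%) and 312 CAMTA1 (82.3%) one-sided peaks, a difference of -40.6 points (-46.2 to -34.5). The EV list went the other way, with a peak at 239 (50.9%) of the TAZ-CAMTA1 and 90 (23.7%) of the CAMTA1 one-sided peaks, a difference of 27.1 points (20.7 to 33.1). Most one-sided CAMTA1 peaks thus had a TAZ4SA peak, and most had a YAP5SA peak. The one-sided TAZ-CAMTA1 peaks had an EV peak more often than the one-sided CAMTA1 peaks did.

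These differences were larger than those between the whole lists. Over all strong peaks, a TAZ4SA peak was present at 77.1% of the TAZ-CAMTA1 and 82.4% of the CAMTA1 peaks, a YAP5SA peak at 93.8% and 96.0%, and an EV peak at 93.9% and 92.9%. Each of these shares was higher than that of the one-sided peaks of the same list. Strong peaks as a whole are broader and of higher p than the one-sided ones, so the shares are also given at matched strength.

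**Figure D2:**
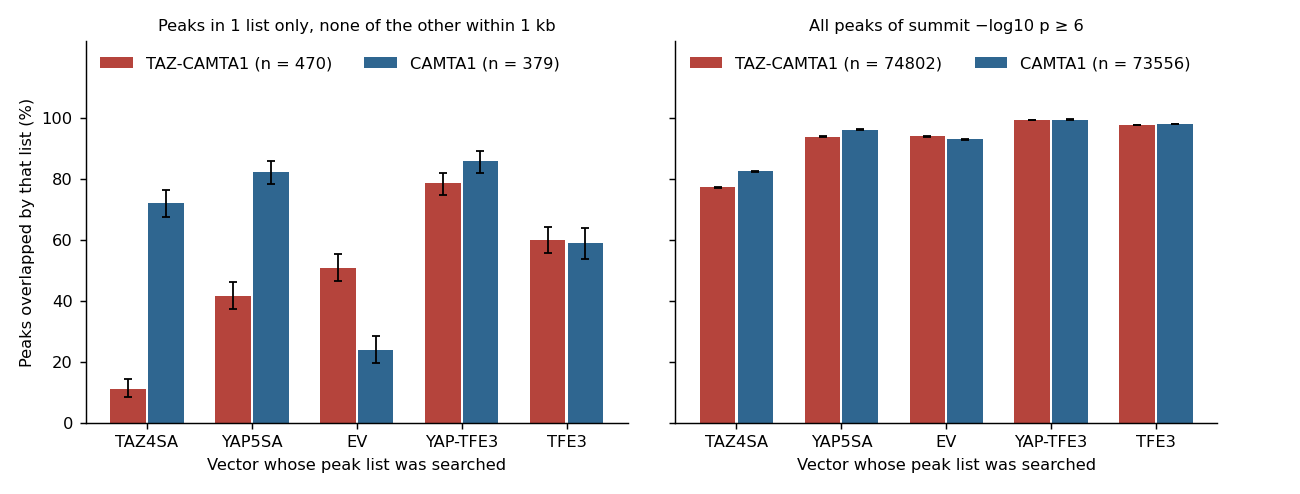
Share (%) of TAZ-CAMTA1 peaks (red) and CAMTA1 peaks (blue) overlapped by a peak of 5 other lists, for one-sided peaks (left) and for all peaks with a summit −log10 p of 6 or more (right). Error bars are Wilson 95% intervals, which cover counting error only. The one-sided sets part at TAZ4SA (11.1% against 72.0%), YAP5SA and EV, and lie close together at TFE3.

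The lists of the other fusion and of its full-length partner differed less between the one-sided sets. YAP-TFE3 peaks lay over 78.5% of the TAZ-CAMTA1 and 85.8% of the CAMTA1 one-sided peaks, a difference of -7.24 points (-12.3 to -2.03). TFE3 peaks lay over 282 (60%) and 223 (58.8%), a difference of 1.16 points whose interval (-5.44 to 7.79) includes 0. Both differences were smaller than those of the TAZ4SA, YAP5SA and EV lists. Over all strong peaks of TAZ-CAMTA1 and CAMTA1 the shares were 99.3% and 99.4% for YAP-TFE3, and 97.6% and 97.9% for TFE3. Both one-sided sets thus lay below their lists. With a summit −log10 p of 6 to 7 the YAP-TFE3 shares were 76.9% and 84.1%, against 97.5% and 97.8% over all peaks. The TFE3 shares were 56.9% and 52.2%, against 90.8% and 92.1%.

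The split had the same direction within ranges of peak strength. Among one-sided peaks with a summit −log10 p of 6 to 7, TAZ4SA peaks lay over 10.6% of 415 TAZ-CAMTA1 and 68.5% of 289 CAMTA1 sites, and EV peaks over 48.0% and 18.3%. Over all peaks of that strength the TAZ4SA shares were 48.3% for TAZ-CAMTA1 and 55.3% for CAMTA1, and the EV shares 79.3% and 78.4%. At this strength the one-sided CAMTA1 peaks lay above their list for TAZ4SA and below it for EV, and the one-sided TAZ-CAMTA1 peaks lay below their list for both. Among those of 7 or more, TAZ4SA peaks lay over 14.5% of 55 TAZ-CAMTA1 and 83.3% of 90 CAMTA1 sites, and EV peaks over 72.7% and 41.1%. Over all peaks of 7 or more the TAZ4SA shares were 85.9% and 90.8%, and the EV shares 98.3% and 97.3%, so that both one-sided sets lay below their lists. For YAP5SA both one-sided sets lay below their lists in either range. From 6 to 7 its shares were 40.5% of TAZ-CAMTA1 and 80.3% of CAMTA1 sites, against 81.5% and 87.3% over all peaks. At 7 or more they were 50.9% and 88.9%, against 97.6% and 98.7%. Taken by chromosome, the TAZ4SA and the YAP5SA shares were higher on the CAMTA1 side on 22 of 22 autosomes. The EV share was higher on the TAZ-CAMTA1 side on 21 of 22, the exception being chromosome 19, with 15 TAZ-CAMTA1 and 6 CAMTA1 sites. Chromosomes share the same libraries and are not replicates.

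The one-sided sites were then split by the combination of lists with a peak. The commonest class of one-sided CAMTA1 peaks was that with a TAZ4SA and a YAP5SA peak and no EV peak, with 180 sites (47.5%, 42.5 to 52.5), against 10 (2.13%) of the TAZ-CAMTA1 sites. Of all strong CAMTA1 peaks, 3.596% belonged to this class. A further 68 CAMTA1 sites (17.9%) had a peak in all 3 lists, against 77.6% of all strong CAMTA1 peaks. A YAP5SA peak alone was found at 49 sites (12.9%, against 2.31%) and no peak at 38 (10.03%, against 0.926%). Counted together, 251 CAMTA1 sites (66.2%) had a peak of an active form, TAZ4SA or YAP5SA, and none of EV, while 100 TAZ-CAMTA1 sites (21.3%) did. Over all strong CAMTA1 peaks the classes counted here made up 2.31% (YAP5SA alone), 0.315% (TAZ4SA alone) and 3.596% (both). Over all strong TAZ-CAMTA1 peaks they made up 2.73%, 0.197% and 1.77%, against 16.8%, 2.34% and 2.13% of the one-sided ones. The one-sided TAZ-CAMTA1 peaks thus also lay above their list for either active form alone.

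The TAZ-CAMTA1 sites were spread over several classes. The largest held the 131 sites with no peak in any of TAZ4SA, YAP5SA and EV (27.9%, 24.0 to 32.1), a class that made up 1.44% of all strong TAZ-CAMTA1 peaks. It was followed by 119 sites with an EV peak only (25.3%), a class with 4 sites (1.06%) on the CAMTA1 side. Over all strong peaks this class made up 3.45% of the TAZ-CAMTA1 and 1.87% of the CAMTA1 list. YAP5SA and EV peaks without TAZ4SA were found at 89 sites (18.9%), against 15.2% of all strong TAZ-CAMTA1 peaks, and a YAP5SA peak alone at 79 (16.8%), against 2.73%. Of the 131 sites without any of the 3 lists, 85 had a YAP-TFE3 peak and 49 a TFE3 peak. No peak of any of the 5 other lists was found at 37 TAZ-CAMTA1 sites (7.87%) and 7 CAMTA1 sites (1.85%). For these combinations with YAP-TFE3 and TFE3 the shares over all strong peaks were not computed, so the counts are given without a background.

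**Figure D3:**
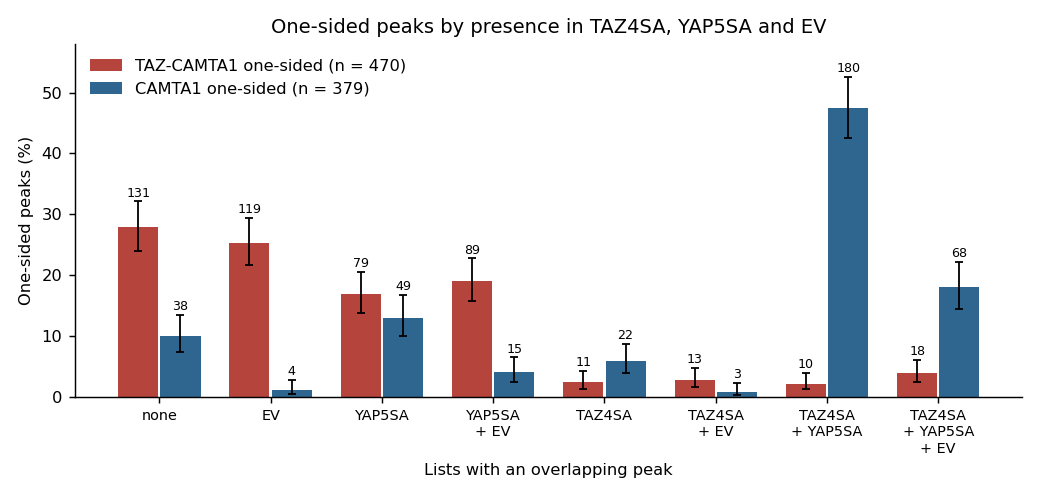
One-sided TAZ-CAMTA1 peaks (red, n = 470) and CAMTA1 peaks (blue, n = 379) split by which of the TAZ4SA, YAP5SA and EV lists have an overlapping peak. Bars are shares of the one-sided peaks in %, error bars Wilson 95% intervals, and the numbers above them counts of sites. CAMTA1 sites gather in the class with TAZ4SA and YAP5SA but no EV peak (180 sites), TAZ-CAMTA1 sites in the classes with no peak (131) or an EV peak only (119).

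The peaks of the other lists at these sites differed in size. At one-sided CAMTA1 sites, TAZ4SA peaks had a median area of 256 and 49.0% had a summit −log10 p of 6 or more, and YAP5SA peaks had a median area of 448 and 57.3% reached 6. The EV peaks at these sites had a median area of 48.5, and 3.19% reached 6. At one-sided TAZ-CAMTA1 sites the peaks of all 3 lists were small, with median areas of 41.6 for TAZ4SA, 79.6 for YAP5SA and 63.6 for EV, of which 0%, 9.35% and 1.55% reached 6. The largest were those of YAP-TFE3, with a median area of 174, of which 21.8% reached 6. An EV peak at a one-sided TAZ-CAMTA1 site was thus usually a weak one.

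Named sites were chosen as the one-sided peaks of highest summit −log10 p. The strongest one-sided CAMTA1 site was chr7:48466357-48467242, 886 bp wide. Its area was 1751 in the CAMTA1 list, 3210 in TAZ4SA, 5572 in YAP5SA, 381 in YAP-TFE3 and 222 in TFE3, and the nearest peaks of TAZ-CAMTA1 and EV lay 1706 and 1497 bp away. The site was larger with either active form than with CAMTA1, and it had no peak with the fusion. Next, chr5:30505101-30505454 had an area of 1080 in the CAMTA1 list, 2049 in TAZ4SA, 2324 in YAP5SA, 174 in YAP-TFE3, 150 in TFE3 and 70.3 in EV, with the nearest TAZ-CAMTA1 peak 10653 bp away. The fourth site, chr5:30505611-30506008 (area 704), was its neighbour and lay under the same TAZ4SA peak and the same YAP5SA peak, so these count as a single site in those lists. The EV peak at the fourth site had an area of 41.1.

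At the remaining pair of the top 5 the active forms again had the largest peaks. The site chr5:13567909-13568474 had an area of 1499 in the CAMTA1 list, 2787 in TAZ4SA, 2803 in YAP5SA, 1483 in YAP-TFE3, 385 in TFE3 and 293 in EV. The site chr11:115547016-115548260 had an area of 1867 in CAMTA1, 2983 in TAZ4SA, 5359 in YAP5SA, 88.2 in TFE3, 41.3 in YAP-TFE3 and 28.0 in EV. At each of the 5 the TAZ4SA and the YAP5SA peak were larger than the CAMTA1 peak, and the EV peak was small or missing. For the second and the fourth site this sets the same TAZ4SA and YAP5SA peaks, which lay over both, against each CAMTA1 peak.

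The strongest one-sided TAZ-CAMTA1 site was chr7:67586577-67587490, 914 bp wide. Its area was 2304 in the TAZ-CAMTA1 list, 549 in YAP-TFE3 and 204 in EV. The nearest peaks of CAMTA1, TAZ4SA, YAP5SA and TFE3 lay 6460, 7580, 7190 and 7110 bp away. This site had a peak in both fusion lists and a small one in EV, and in no list of a full-length protein. The second, chr10:102118864-102119968, had an area of 1877 in TAZ-CAMTA1, 834 in YAP-TFE3, 147 in EV, 111 in TFE3 and 35.8 in YAP5SA. The third, chr17:4343620-4344615, had 1509 in TAZ-CAMTA1, 575 in YAP-TFE3, 102 in TFE3, 76.1 in YAP5SA and 45.1 in EV. At these 3 sites the YAP-TFE3 peak was the next largest.

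At the remaining pair of sites the other lists lay closer together. The area at chr17:60994113-60994914 was 1915 in TAZ-CAMTA1, 376 in TFE3, 334 in EV, 322 in YAP-TFE3 and 60.03 in YAP5SA. The area at chr5:56363184-56363761 was 1023 in TAZ-CAMTA1, 284 in EV, 244 in TFE3, 194 in YAP-TFE3 and 50.6 in YAP5SA. None of the 5 sites had a TAZ4SA peak, and at every one of them the TAZ-CAMTA1 area was more than that of any other list.

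**Figure D4:**
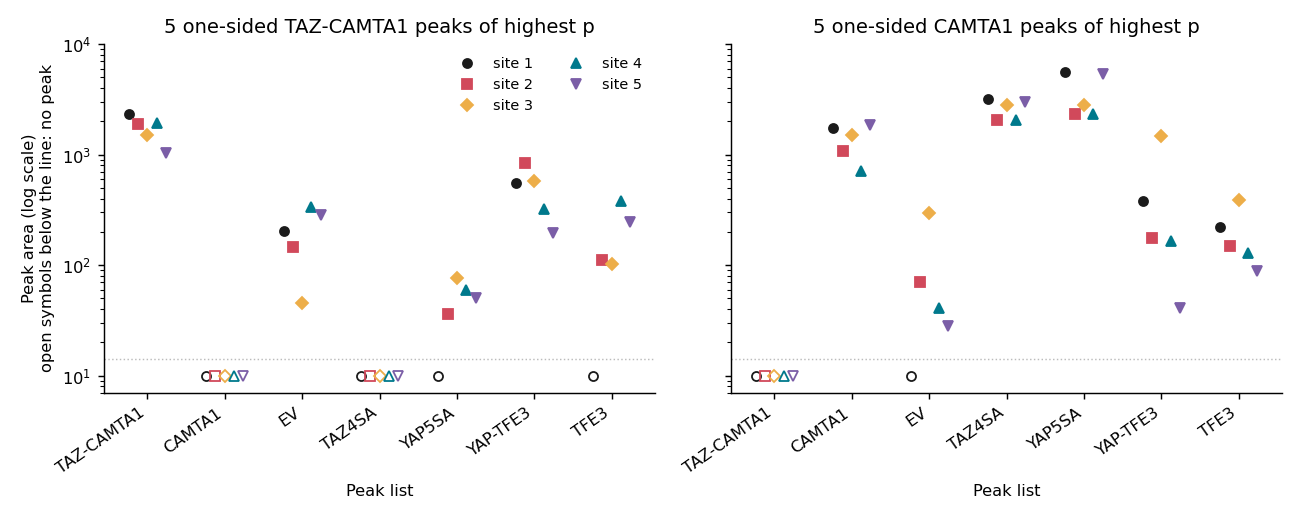
Area of the peak in each of the 7 lists (log scale) at the 5 one-sided TAZ-CAMTA1 sites (left) and the 5 one-sided CAMTA1 sites (right) of highest summit −log10 p, 1 symbol per site. Open symbols under the dotted line mark lists with no peak at the site and have no value. Sites 2 and 4 on the right share their TAZ4SA and YAP5SA peaks. The CAMTA1 sites are largest in TAZ4SA and YAP5SA, and the TAZ-CAMTA1 sites have no TAZ4SA peak.

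Sites outside the main classes show the limits of a split by presence. The TAZ-CAMTA1 site chr7:28473441-28473848 had a YAP5SA peak of area 433 beside its own 682 and neither a TAZ4SA nor an EV peak. By contrast, chr20:46699488-46700445 had an area of 1747 in TAZ-CAMTA1 and under 70 in every other list with a peak, from 25.1 in TAZ4SA to 67.3 in EV. The site chr11:113064457-113065288, with an area of 1080 in TAZ-CAMTA1, had no peak in any other list. On the CAMTA1 side, chr8:140876086-140876551, with an area of 797, was likewise alone, and its nearest TAZ-CAMTA1 peak lay 92651 bp away. At chr20:58902945-58903954, which had a CAMTA1 area of 1816, the YAP5SA and EV peaks had areas of 20.9 and 27.0. A small peak counts as presence in this split as much as a large one.

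Among the smaller classes, the same holds for TAZ4SA. The TAZ-CAMTA1 site chr4:140796571-140796958 had an area of 549 and counted as a TAZ4SA site through a TAZ4SA peak of area 21.0. The CAMTA1 site chr18:54774460-54775081 had an area of 1233, a TAZ4SA peak of 299 and a YAP-TFE3 peak of 704. The CAMTA1 site chr2:203204219-203204545 had an area of 478 and a larger YAP5SA peak of 986, and it counted as having no TAZ4SA peak although one lay 108 bp away.

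Since one-sided peaks were few, the shared pairs were graded by their area ratio. This grading was added with the one-sided results known, and its ratios come from the same lists. Of the 56533 one-to-one pairs with a summit −log10 p of 6 or more in either list, 6515 (11.5%) had a TAZ-CAMTA1 area at least 2 times that of CAMTA1 and 5983 (10.6%) the reverse, relative to the median ratio of all pairs. Without centring on that median the counts were 8581 and 4500. A TAZ4SA peak lay over 75.3% of the pairs with the larger CAMTA1 area and 33.6% of those with the larger TAZ-CAMTA1 area. The shares were 89.3% and 74.7% for YAP5SA, and 67.2% and 78.6% for EV. The directions were those of the one-sided sites, and each held on 22 of 22 autosomes. Pairs within 1.41 times on the CAMTA1 side had shares of 87.9% (TAZ4SA), 97.4% (YAP5SA) and 96.0% (EV). Those within 1.41 times on the TAZ-CAMTA1 side had 78.7%, 95.6% and 95.5%. The pairs at least 2 times apart lay below these shares on both sides, for every list. The shares over all graded pairs were not computed.

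Peaks of active TAZ and YAP together, without an empty-vector peak, were again more frequent on the CAMTA1 side. Of the pairs with the larger CAMTA1 area, 1118 (18.7%) had both a TAZ4SA and a YAP5SA peak and no EV peak. Of those with the larger TAZ-CAMTA1 area, 214 (3.28%) did. An EV peak without either active form was found at 178 (2.98%) and 924 (14.2%), respectively. YAP-TFE3 peaks were present at 97.0% and 96.8%, and TFE3 peaks at 89.8% and 88.1%. The shares of the classes above over all graded pairs were not computed, so only the sides are compared. EV peaks were less frequent on both sides than at pairs within 1.41 times.

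The change with the area ratio was gradual for TAZ4SA, with a rise to the middle and then a fall. Its peaks lay over 73.6% of the 1848 pairs with a CAMTA1 area over 4 times larger, 87.9% of the 17875 pairs within 1.41 times on the CAMTA1 side, 78.7% of the 13949 pairs within 1.41 times on the TAZ-CAMTA1 side, 39.0% of the 4482 pairs with a TAZ-CAMTA1 area 2 to 4 times larger and 21.9% of the 2033 pairs over 4 times larger. EV peaks lay over 50.7% of the pairs at the CAMTA1 end, 96.0% near the middle and 72.0% at the TAZ-CAMTA1 end. Pairs at both ends were narrower than those in the middle: the larger of the 2 peaks had a median width of 394 bp at the CAMTA1 end and 422 bp at the TAZ-CAMTA1 end, and CAMTA1 peaks in the middle had a median of 1058 bp. Both lists therefore lost presence toward the ends, TAZ4SA mainly on the TAZ-CAMTA1 side and EV mainly on the CAMTA1 side.

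The areas of active TAZ and YAP relative to the empty vector were graded mainly on the CAMTA1 side. The middle below stands for the pairs within 1.41 times on the CAMTA1 side. At pairs with a peak in both TAZ4SA and EV, the median log2 area ratio of TAZ4SA over EV was 1.86 (quartiles 0.63 and 3.09, n = 749) where CAMTA1 was over 4 times larger, -0.53 (n = 15402) near the middle and -1.12 (quartiles -2.07 and -0.12, n = 363) where TAZ-CAMTA1 was over 4 times larger. For YAP5SA over EV the medians were 2.63 (n = 845), 0.34 (n = 16825) and 0.29 (n = 993). On the TAZ-CAMTA1 side, from within 1.41 times to over 4 times, the medians did not fall steadily. They were -1.01, -1.33, -1.24 and -1.12 for TAZ4SA, and 0.25, 0.28, 0.26 and 0.29 for YAP5SA. The ratio to EV was higher at the CAMTA1 end for the other lists as well, at a median of 2.50 for YAP-TFE3 against 1.17 near the middle, and 0.90 for TFE3 against 0.04. At the TAZ-CAMTA1 end these medians were 1.58 and -0.06. The rise at the CAMTA1 end was therefore common to all 4 lists and was not limited to the active forms of TAZ and YAP. Across sites, the log2 area ratio of TAZ-CAMTA1 over CAMTA1 had a Pearson r of -0.423 with TAZ4SA over EV (39174 sites) and -0.280 with YAP5SA over EV (47558 sites). With YAP-TFE3 over EV and TFE3 over EV it was -0.071 (50239 sites) and -0.127 (49440 sites). These 4 ratios share the EV list, and sites of a genome share width and base composition.

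**Figure D5:**
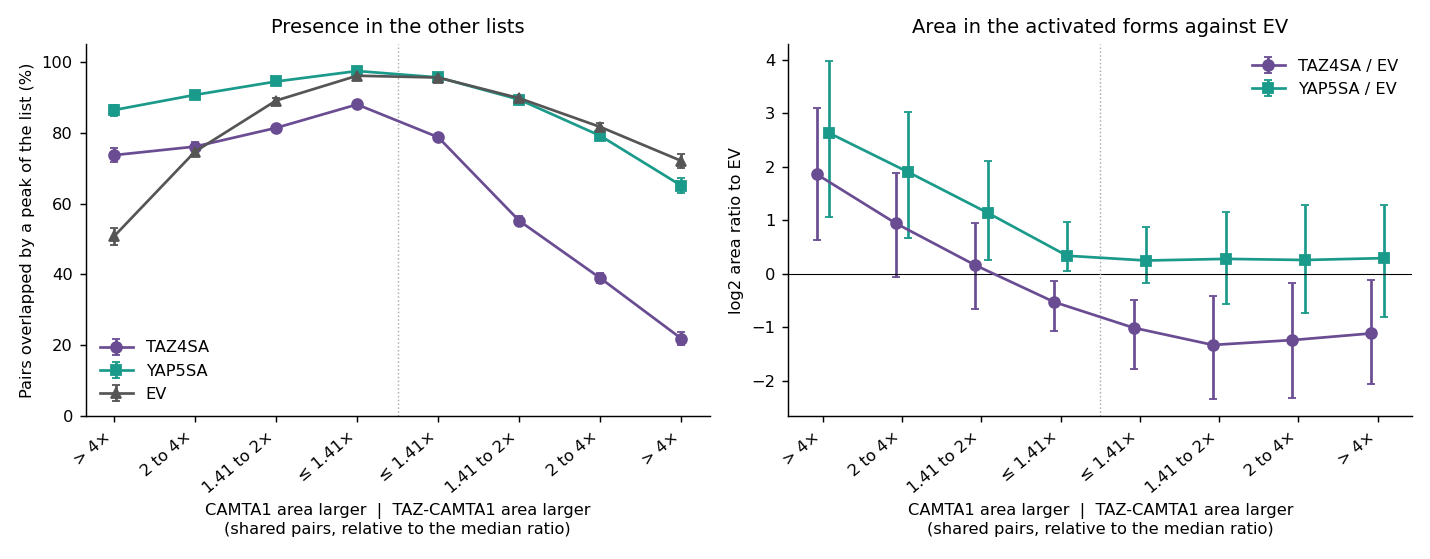
Shared one-to-one pairs with a summit −log10 p of 6 or more in either list, in 8 bins of their area ratio relative to the median, from CAMTA1 over 4 times larger (left end) to TAZ-CAMTA1 over 4 times larger (right end). The left plot gives the share of pairs (%) with a TAZ4SA, YAP5SA or EV peak, with Wilson 95% intervals, and the right plot the median log2 area ratio to EV with quartiles as bars. TAZ4SA presence is 73.6% at the CAMTA1 end, 87.9% near the middle and 21.9% at the TAZ-CAMTA1 end. Its median ratio to EV is 1.86 at the CAMTA1 end and -1.12 at the TAZ-CAMTA1 end, with the lowest value, -1.33, at TAZ-CAMTA1 1.41 to 2 times larger.

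Single shared pairs at the extremes showed the same order. The lowest log2 area ratio among pairs of 6 or more in both lists, -2.53, was at chr18:23229534-23230979, where the area was 522 in TAZ-CAMTA1, 3006 in CAMTA1, 2767 in TAZ4SA, 6417 in YAP5SA, 265 in EV, 382 in YAP-TFE3 and 904 in TFE3. The summits of the pair lay 4 bp apart, and the TAZ-CAMTA1 peak was 466 bp wide against 1446 bp. The site was large with CAMTA1 and both active forms and small with both fusions and EV.

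The next lowest pairs were chr5:43281161-43283008 and chr3:134565514-134566577. At the first (log2 ratio -2.20) the area was 1017 in TAZ-CAMTA1, 4687 in CAMTA1, 2436 in TAZ4SA, 6675 in YAP5SA, 454 in EV, 6086 in YAP-TFE3 and 1930 in TFE3. Here YAP-TFE3 was high as well, so the fusions differed. At the second (-2.13) the area was 646 in TAZ-CAMTA1, 2837 in CAMTA1, 2669 in TAZ4SA, 3223 in YAP5SA, 770 in EV, 2401 in YAP-TFE3 and 569 in TFE3.

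The highest ratio, 2.92, was at chr5:124661335-124662611. The area was 2673 in TAZ-CAMTA1, 354 in CAMTA1, 482 in YAP5SA, 855 in EV, 1308 in YAP-TFE3 and 336 in TFE3, and the nearest TAZ4SA peak lay 47815 bp away. The EV area exceeded those of CAMTA1 and YAP5SA. At chr7:26574347-26575600 (2.57) the area was 2820 in TAZ-CAMTA1, 475 in CAMTA1, 187 in TAZ4SA, 313 in EV, 2818 in YAP-TFE3 and 426 in TFE3, with no YAP5SA peak. Both fusions had a nearly equal peak there. At chr15:73321432-73322324 (2.57) the area was 1533 in TAZ-CAMTA1, 258 in CAMTA1, 48.1 in YAP5SA, 373 in EV, 30.5 in YAP-TFE3 and 227 in TFE3, with no TAZ4SA peak, so that this site was high with TAZ-CAMTA1 alone.

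The comparison was also read from the lists of the active forms, whose peaks the rule did not choose. Of the 44497 TAZ4SA peaks with a summit −log10 p of 6 or more, 1224 (2.75%, 2.60 to 2.91) had no TAZ-CAMTA1 peak within 1 kb and 418 (0.939%, 0.854 to 1.03) had no CAMTA1 peak. A CAMTA1 peak lay over 776 of the 1224, and a TAZ-CAMTA1 peak over 46 of the 418. Of the 69384 such YAP5SA peaks, 3384 (4.88%) had no TAZ-CAMTA1 peak and 2233 (3.22%) no CAMTA1 peak, and 1491 of the former were overlapped by CAMTA1 against 435 of the latter by TAZ-CAMTA1. The TAZ-CAMTA1 list missed more of the strong sites of active TAZ and YAP than the CAMTA1 list did, although it was the longer.

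Strong peaks of EV and TFE3 were seldom missing from either list. Of the 46845 strong EV peaks, 49 (0.105%, 0.0791 to 0.138) had no TAZ-CAMTA1 peak and 28 (0.0598%, 0.0414 to 0.0864) no CAMTA1 peak within 1 kb. A CAMTA1 peak lay over 38 of the 49, and a TAZ-CAMTA1 peak over 17 of the 28. The intervals overlap, and the direction was that of TAZ4SA and YAP5SA. It was thus the opposite of the EV shares at the one-sided sites. Of the 47513 strong TFE3 peaks, 0 lacked a TAZ-CAMTA1 peak and 0 lacked a CAMTA1 peak, which allows a share of up to 0.00808% by the upper bound of the Wilson interval. These shares were lower than those of the TAZ4SA and YAP5SA peaks. For YAP-TFE3 the direction was the opposite of that for TAZ4SA and YAP5SA: of 80465 strong peaks, 812 (1.01%, 0.942 to 1.08) had no TAZ-CAMTA1 peak and 940 (1.17%, 1.10 to 1.24) no CAMTA1 peak.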

How the data were processed

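ATAC-seq libraries of SW872 cells with 7 vectors were analysed as the 7 deposited peak lists, 1 per vector, of which TAZ-CAMTA1 and CAMTA1 are the members. According to the methods of the study, the authors trimmed reads with NGmerge, aligned them with BWA-MEM to hg19 and called peaks with Genrich in ATAC-seq mode, without PCR duplicates, artefact regions and some contigs. Those methods describe calling on every replicate separately, and how the libraries entered each list is not stated. The submitters' processing notes name Bowtie 0.12.2 and mm8, which do not match these human lists. The signal column deposited by the authors is the area under the caller's curve, and the −log10 p deposited by the authors is that of the summit. The lists hold no counts, and depth is unknown.

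Overlaps, one-to-one pairs, distances and shares were computed with pandas 2.3.3, numpy 2.4.6 and scipy 1.17.1, on functions tested on simulated data and against bedtools 2.31.1. Intervals are Wilson's, and Newcombe's for differences. For named sites, the rule took per direction the 5 peaks of highest summit −log10 p and the 2 highest of each of 8 presence classes, and 3 shared pairs at each end of the area ratio, of which a part is printed. The alternatives are given in the closing section. The members, lists and comparisons were chosen with earlier results of these data known.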

Additional observations from a re-analysis of the deposited data

How the results depend on the processing

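No paired analysis was possible because each vector has 1 list and none per library, and leaving out a library was not possible for the same reason. The planned search for genes and markers was not run, since no hg19 annotation was at hand. No ratio or difference changed sign under the 13 planned or 4 added alternatives. The number of one-sided sites depended on the thresholds most and the lists kept. It was 2623 for TAZ-CAMTA1 and 1708 for CAMTA1 from a summit −log10 p of 5, and 8 and 21 from 8, where the order of the counts turned. It was 241 and 215 with no peak within 5 kb, 738 for TAZ-CAMTA1 by no overlap alone, 1376 and 1084 with equal numbers of peaks (152702) from every list, and 1091 and 901 with peaks of 4 or more only.

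The TAZ4SA difference was -42.6 points from 5, -82.7 from 8, -53.3 with equal numbers, -54.2 with peaks of 4 or more and, added after seeing the data, -68.8 for one-sided peaks of 7 or more. The YAP5SA difference was -31.7 from 5. The EV difference was 18.6 from 5, 13.1 (-25.1 to 40.7, an interval that includes 0) from 8, and 33.6 with equal numbers of peaks of largest area.

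Shared TAZ-CAMTA1 and CAMTA1 peaks made up 74.1% and 82.1% with equal numbers, 72.7% and 81.0% with peaks of 4 or more, 47.0% and 49.8% where the overlap had to reach 50% of each of the paired peaks, and 74.1% and 79.0% with summit windows reaching 250 bp both ways. The median log2 width ratio was 0.21 over every overlapping pair, 0.10 over the pair of largest overlap and 0.076 with a 50% overlap. The median log2 area ratio was 0.39, 0.21 and 0.19, respectively, and 0.22 with equal numbers. Summits within 50 bp made up 59.0%, 67.6% and 74.9%, respectively, 74.3% with equal numbers, 74.2% with peaks of 4 or more and 69.9% with windows. The cause of these changes was not tested.

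Peak lists hold no counts, so that a missing peak means that none was called at this unknown depth, not that the site was closed.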

Other observations

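The one-sided peaks were also split by the YAP-TFE3 and TFE3 lists, which held 235795 and 156421 peaks. Of the 470 one-sided TAZ-CAMTA1 peaks, 118 (25.1%, 21.4 to 29.2) had a YAP-TFE3 but no TFE3 peak, and 31 (6.60%) the reverse. Of the 379 one-sided CAMTA1 peaks, 123 (32.5%, 27.9 to 37.3) and 21 (5.54%) did. Peaks of both lists lay over 251 (53.4%) and 202 (53.3%) of the sites. A YAP-TFE3 peak without a TFE3 peak was thus more frequent than the reverse on both sides, and not particular to the fusion. The part of list length in this was not tested. The shares of these combinations over all strong peaks were not computed. All 5 other lists had a peak at 16 TAZ-CAMTA1 sites (3.40%) and 54 CAMTA1 sites (14.2%), and the share over all strong peaks was not computed. For TAZ4SA, YAP5SA and EV together it was 74.1% of the TAZ-CAMTA1 and 77.6% of the CAMTA1 list, against 3.83% and 17.9% of the one-sided peaks. Both one-sided sets thus lay far below their lists, that of TAZ-CAMTA1 further. Chosen after its values were seen, a further group was the 358 strong TAZ4SA peaks with neither a TAZ-CAMTA1 nor a CAMTA1 peak within 1 kb, and the 1701 such YAP5SA peaks.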
